A study of Mus musculus with 61 samples.

Results

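The coronal fractions of the frontal forebrain are 5 arrays of a whole-brain transcriptome tomography series, C11 and C12 of the C series and Co12, Co13 and Co14 of the Co series. They were taken by fraction number from the 29 coronal arrays of the series, which holds 61 arrays in all, and were compared with the other 24 coronal arrays, 11 of C and 13 of Co. Each array measured the RNA of 1 fraction, a slab 1 mm thick made of 200 sections of 5 µm. Fractions are numbered from posterior to anterior, and the Co brain was cut slightly obliquely to the plane of the C brain. The mice were male C57BL/6J animals, 8 weeks old, perfused with RNAlater, a solution that keeps RNA intact in tissue. All groups compared here share that strain, sex, age and perfusion and carry no other treatment. The C fractions came from mouse 3 and the Co fractions from mouse 4, so that series and mouse are the same thing and each was used as a block.

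The fractions next to them were set apart as well. The caudal neighbours are the 4 fractions just behind (C9, C10, Co10 and Co11), and the rostral neighbours are the 3 fractions in front (C13, Co15 and Co16). A level is given below as the log2 of the background-subtracted spot intensity, with the 75th percentile of each array set to 0. A difference is a difference of such levels, and 1 unit is a 2-fold change. Genes were called at an adjusted p under 0.05 of limma, a linear model across all probes with shared information on their spread. Fractions of 1 mouse are not separate animals, so the p-values measure the spread between fractions of 2 brains. In the comparisons with the neighbours all 29 coronal arrays were fitted together, so that this spread includes fractions that were not compared.

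The front of the mouse forebrain holds the frontal cortex, where glutamatergic projection neurons lie in layers, and beneath it the anterior part of the striatum, whose medium spiny neurons carry dopamine receptors. Further forward lies the olfactory bulb, where mitral and tufted cells receive the axons of olfactory sensory neurons. New interneurons of the bulb reach it as neuroblasts through the rostral migratory stream, a path that crosses the white matter under the frontal cortex. A 1 mm slab can hold pieces of all of these, and in such bulk samples fewer cells of a type and less RNA per cell cannot be told apart.

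Marker genes placed the 5 fractions on a steep transition. Markers of cortical excitatory neurons were at their highest in C11 and Co12, where striatal markers were already leaving their maximum. Markers of olfactory bulb neurons were near their maximum in C12 and Co14. Lists of cortical layers peaked farther back, by the median over genes of the level minus the gene's mean in the series. Upper-layer markers did so in C8 (0.635) and Co11 (0.852), and deep-layer markers in C10 (0.618) and Co11 (0.641). The median of 14 cortical excitatory markers, against the mean of the caudal neighbours of the same series, differed by 0.19 in C11, -1.27 in C12, 0.28 in Co12, -0.01 in Co13 and -0.96 in Co14 on the log2 scale. The median of 20 markers of striatal projection neurons differed by -1.01 in C11, -2.56 in C12, -0.25 in Co12, -1.55 in Co13 and -2.26 in Co14. The median of 14 olfactory bulb markers differed by 0.84, 4.00, 0.03, 2.21 and 3.72 in the same order. C12 and Co14 thus stood apart from C11 and Co12 in both mice, and Co13 lay between.

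**Figure D1:**
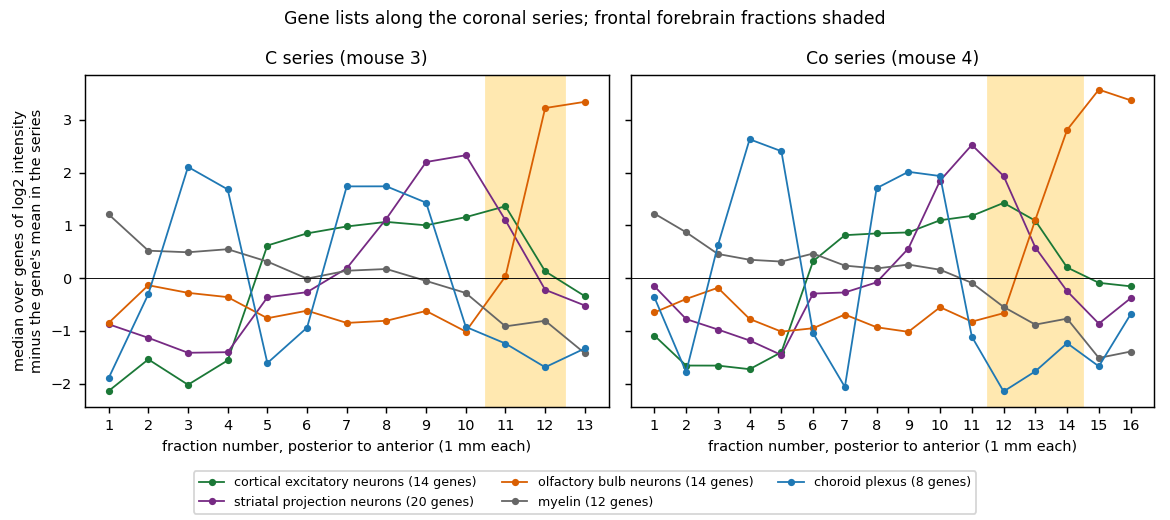
Median level of 5 marker lists along the coronal fractions, from posterior (left) to anterior (right), in the C series (mouse 3) and the Co series (mouse 4). Each point is the median over the genes of a list of the log2 intensity minus the gene's mean in that series, and the 5 frontal forebrain fractions are shaded. The olfactory bulb list climbs within the shaded fractions while the striatal and cortical lists decline, and the choroid plexus list is low throughout them.

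Single genes traced the same order. The level of *Tbx21*, a T-box factor of mitral and tufted cells, was -0.71 in C11, 2.48 in C12, -2.62 in Co12, 0.62 in Co13 and 2.43 in Co14, against -5.54 to -5.09 in the caudal and 2.09 to 3.00 in the rostral neighbours. The level of *Drd2*, the dopamine D2 receptor of striatal neurons, was 0.03 in C11, -2.06 in C12, 1.26 in Co12, -1.46 in Co13 and -1.92 in Co14, against 1.40 to 2.08 behind and -1.99 to -1.29 in front. *Neurod2*, a helix-loop-helix factor of cortical neurons, had levels of 3.51, 1.79, 3.49, 3.38 and 1.99 in that order. C11, Co12 and Co13 exceeded the caudal neighbours (2.84 to 3.13) for *Neurod2*, whereas C12 and Co14 lay between these and the rostral neighbours (0.49 to 1.02). *Dcx*, the doublecortin of migrating neuroblasts, had levels of -0.01 in C11, 2.26 in C12, -0.32 in Co12, 1.39 in Co13 and 2.60 in Co14. The rostral neighbours measured 1.76 to 2.36 and the caudal neighbours -0.55 to -0.41, so that Co14 reached above the fractions in front of it.

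The label of frontal forebrain fits the markers of C11 and Co12, and those of Co13 in part. Of 14 olfactory bulb markers, 2 in C11, 13 in C12, 1 in Co12, 10 in Co13 and 13 in Co14 were nearer to the rostral than to the caudal mean of the series. Summed over these 14 markers, with the 75th percentile of an array as 1, the intensity was 39.9 in C11, 181.0 in C12, 29.8 in Co12, 69.6 in Co13 and 181.0 in Co14, against 28.3 to 32.1 in the caudal and 184.0 to 232.0 in the rostral neighbours. C12 and Co14 therefore carried bulb marker signal close to that of the fractions in front, and the counts of calls and the calls of the leading genes are also given without them.

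**Figure D2:**
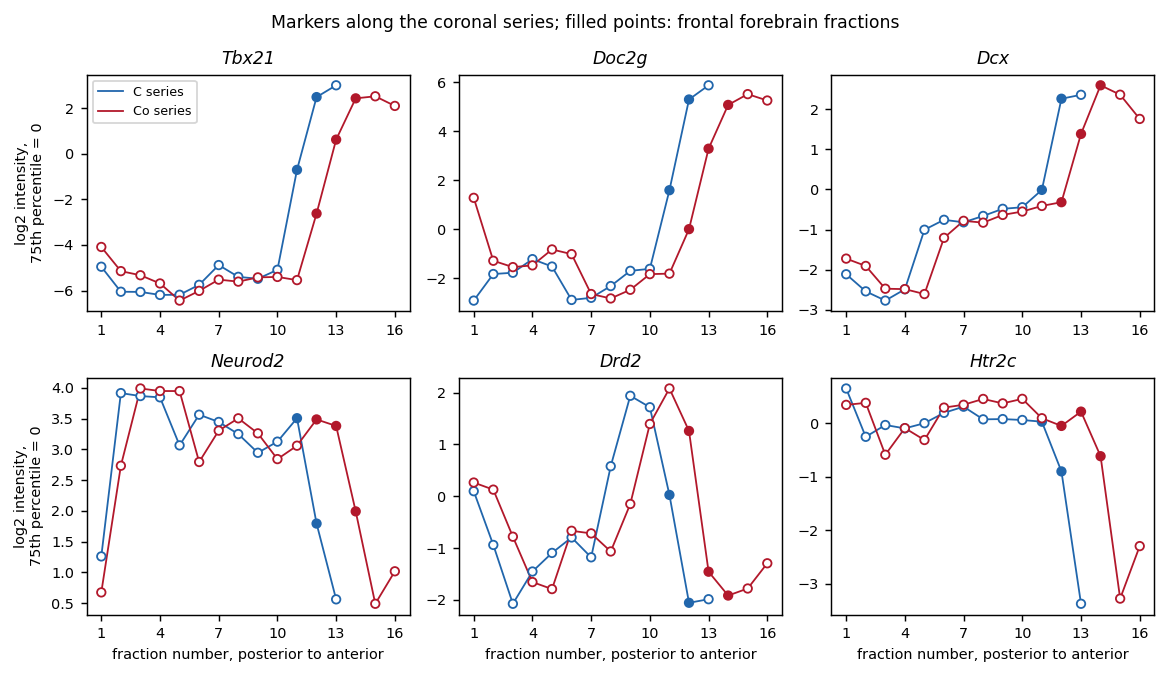
Levels of 6 marker genes along the coronal fractions, as log2 intensity with the 75th percentile of each array at 0, in the C series (blue) and the Co series (red), with fraction number from posterior to anterior. Filled points are the 5 frontal forebrain fractions, in which *Tbx21*, *Doc2g* and *Dcx* climb and *Drd2* declines, while *Neurod2* and *Htr2c* drop from C11 to C12 and from Co13 to Co14.

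The same order held across the whole array. Among probes at least 2-fold apart between the caudal and rostral neighbours, 9138 in C and 6334 in Co, the place of a fraction was set to 0 at the caudal and 1 at the rostral mean. The median place was 0.067 for C11, 0.555 for C12, 0.005 for Co12, 0.298 for Co13 and 0.647 for Co14. The share of these probes nearer to the rostral mean was 19.0% in C11, 54.3% in C12, 13.0% in Co12, 30.9% in Co13 and 69.1% in Co14. C11 and Co12 therefore resembled the fractions behind them, and C12 and Co14 lay past the midpoint.

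**Figure D3:**
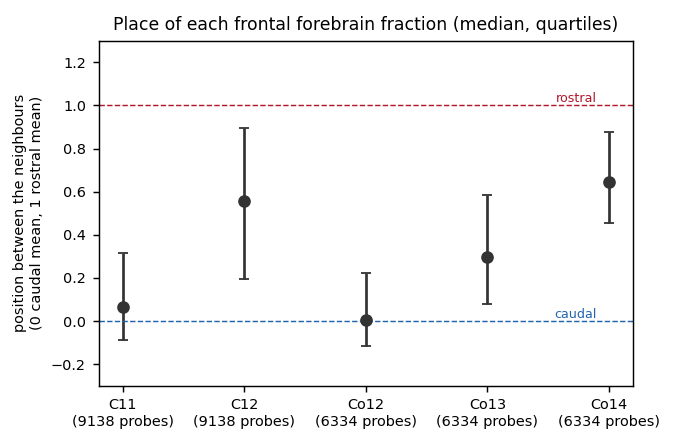
Place of each of the 5 frontal forebrain fractions between the mean of its caudal neighbours (0) and the mean of its rostral neighbours (1), over the probes that differ at least 2-fold between those means; points are medians over probes and bars the quartiles. C11 and Co12 sit near 0, Co13 at 0.298, and C12 and Co14 above 0.5.

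Among 34333 probes measured on all coronal arrays, 2363 were at least 2-fold higher and 1938 at least 2-fold lower in C12 than in C11. From Co12 to Co14, 2320 were higher and 2364 lower by that much. The steps of both mice matched in 1239 probes that were higher and 1070 that were lower, while 76 and 52 moved oppositely. Of the 4684 probes that differed between Co12 and Co14, Co13 lay between the 2 in 2017 that were higher and 1947 that were lower in Co14. By Pearson correlation over probes, the array closest to each was C8 for C11 (0.9887), Co14 for C12 (0.9857), Co11 for Co12 (0.9917), Co12 for Co13 (0.9879) and Co15 for Co14 (0.9897). A slope over the 5 fractions, with series as a block, called 0 probes by limma, with 9158 at an unadjusted p under 0.05 and 2 residual degrees of freedom. After normexp and quantile normalization it called 1922 higher and 1187 lower.

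Against the other 24 coronal fractions, *Tbx21*, *Scgn* and *Cpa6* had the largest differences among the called genes higher in the frontal fractions of both mice, and *Mab21l2*, *Glra1* and *Irx2* among those lower. Of 34872 probes tested, 232 (0.665%) were higher and 984 (2.82%) lower by limma. Of 14 olfactory bulb markers 1 was higher and 1, *Lhx5*, lower (median 1.44). The higher share depended on the scaling: 19.1% of the calls were higher with the 75th percentile at 0, and 66.3% (1476 higher, 749 lower) with the median at 0, which moved the median difference of all probes by 0.122. The other fractions include the rostral neighbours, whose bulb signal is close to that of C12 and Co14. Without those 3 fractions 2392 probes were higher and 4506 lower, and with C12 and Co14 left out 15 were higher and 87 lower.

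Among the higher genes, *Tbx21* differed by 4.95 ± 1.30 (SE, n = 5 and 24; limma adjusted p = 0.0363), and by 5.71 in C and 4.42 in Co. *Scgn*, the calcium-binding protein secretagogin, differed by 4.46 ± 1.27 (limma adjusted p = 0.0483) with levels of -3.00 in C11, 0.16 in C12, -4.40 in Co12, -1.14 in Co13 and 0.51 in Co14. *Cpa6*, a carboxypeptidase, differed by 3.44 ± 0.98 (limma adjusted p = 0.0488). For these 3 genes C12 and Co14 lay near the levels of the rostral neighbours, so that the groups overlap, and none of the 3 was called with C12 and Co14 left out. Their adjusted p was then 0.238, 0.271 and 0.3.

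Another set of genes peaked inside the 5 fractions. *Ndst4*, a heparan sulfate N-deacetylase and N-sulfotransferase, had levels of -2.21 in C11, -2.60 in C12, -3.66 in Co12, -1.50 in Co13 and -2.59 in Co14. The other fractions lay between -4.54 and -3.80 in C and between -4.49 and -3.19 in Co, so that all but Co12 exceeded every other coronal fraction. Its difference was 1.59 ± 0.21 (3.02-fold; limma adjusted p = 0.000742). It was also higher than the caudal neighbours, by 1.84 ± 0.28 (limma adjusted p = 0.000791), and than the rostral neighbours, by 1.42 ± 0.31 (limma adjusted p = 0.0024). With slide entered as a fixed block, the adjusted p of the first comparison was 0.00641, and with C12 and Co14 left out 0.00826.

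*Nmbr*, the receptor for neuromedin B, had levels of -2.78 in C11, -3.57 in C12, -5.88 in Co12, -3.53 in Co13 and -4.66 in Co14. All 5 lay above the other fractions of their own series, which reached -4.82 in C and -5.97 in Co, with Co12 only 0.09 above. Its difference was 2.30 ± 0.44 (4.92-fold; limma adjusted p = 0.00669) against all other fractions and 2.14 ± 0.68 (limma adjusted p = 0.029) against the rostral neighbours. Against the caudal neighbours it was 2.27 ± 0.63, which missed the threshold (limma adjusted p = 0.0683). The call against all other fractions ended with C12 and Co14 left out (limma adjusted p = 0.0637), with slide as a fixed block (adjusted p = 0.122) and without 1 of the frontal fractions (adjusted p of up to 0.0539). *Nmb*, which encodes the peptide ligand, was on the olfactory bulb list and had a different course, with levels of 0.49, 4.16, -0.23, 2.71 and 4.34 in the 5 fractions and 4.71 to 4.82 in the rostral neighbours. The receptor thus was highest in C11 and Co13, the ligand in C12 and Co14.

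*Pnmt*, the enzyme that makes adrenaline from noradrenaline, had levels of -3.55 in C11, -2.75 in C12, -3.95 in Co12, -3.33 in Co13 and -3.01 in Co14, and differed by 1.24 ± 0.23 (limma adjusted p = 0.00454) from the other fractions and by 1.14 ± 0.26 (limma adjusted p = 0.00354) from the rostral neighbours. Co12 lay within the range of the other Co fractions, which reached -3.78. With C12 and Co14 left out the limma adjusted p of the first comparison was 0.122, and with slide fixed 0.206. The other genes named on the higher side were *Abi3bp*, *Tmem40*, *Msx3*, *Tfcp2l1*, *Rgs18*, *Stard8*, *Plekha2* and *Lrmp*, with differences of 1.17 to 2.17. None of them was called with C12 and Co14 left out (limma adjusted p of 0.114 to 0.318). The same held with slide fixed (limma adjusted p of 0.4 to 0.631). For *Abi3bp*, Co4 (-3.94) lay above Co13 (-4.12), the highest frontal Co fraction. *Rgs18* is a regulator of G protein signalling and *Msx3* a homeobox factor.

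On the lower side, *Agt*, the angiotensinogen gene of astrocytes, was lower than in all 3 groups compared. Its levels were 1.00 in C11, 1.65 in C12, 1.19 in Co12, 0.82 in Co13 and 2.17 in Co14. The other fractions ranged from 1.95 to 5.32 in C and from 2.71 to 5.45 in Co, and all 5 frontal fractions lay below those of their own series. The difference was -2.74 ± 0.37 (6.68-fold; limma adjusted p = 0.000742) against all others, -1.51 ± 0.34 (limma adjusted p = 0.0193) against the caudal neighbours and -2.30 ± 0.37 (limma adjusted p = 0.000198) against the rostral neighbours. Only 1 of 11 astrocyte markers was called against the other fractions, and that was *Agt*.

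*Glra1*, a glycine receptor subunit of the hindbrain and spinal cord, was not well above background on any of the 5 arrays. By plain group means, without the block, it was at least 16.7-fold lower than in the other fractions. The measured difference in the main fit was -4.27 ± 1.08 (limma adjusted p = 0.0309). *Mab21l2*, also not well above background on any of the 5, was at least 15.0-fold lower by plain group means (limma adjusted p = 0.0459). Over the alternatives the measured log2 difference ranged from -4.8 to -1.55 for *Glra1* and from -4.88 to -1.28 for *Mab21l2*. *Foxb1*, a forkhead factor of the diencephalon, differed by -3.61 ± 0.81 (limma adjusted p = 0.0176) and was well above background on 1 of the 5 arrays. *Otx2*, a homeobox factor and the 1 of 8 choroid plexus markers that was called, had a difference of -2.90 ± 0.62 (limma adjusted p = 0.0124). *Irx2*, *Shox2*, *Lhx5*, *Zfp474* and *Hoatz* completed the named genes, with differences of -3.84 to -2.77. With C12 and Co14 left out the limma adjusted p was 0.152 for *Glra1*, 0.179 for *Mab21l2*, 0.129 for *Foxb1* and 0.0615 for *Otx2*. None of these genes but *Agt* was called against the rostral neighbours, where the limma adjusted p was 0.296 to 0.996.

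**Figure D4:**
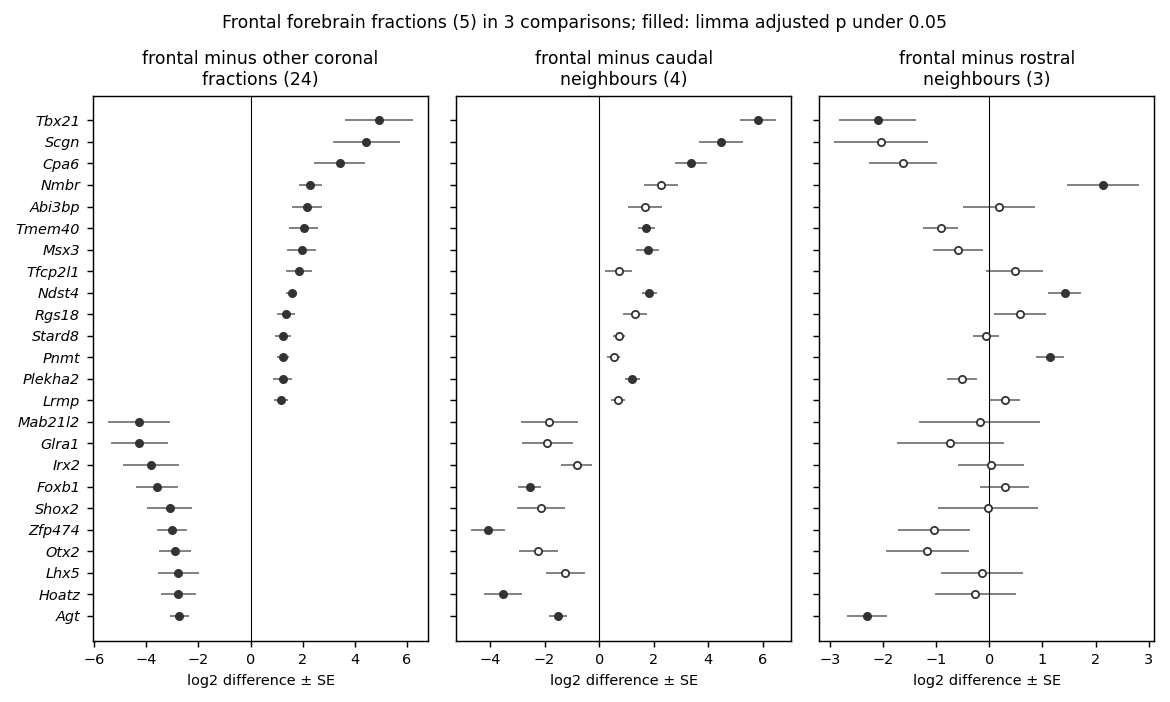
Log2 difference with its SE of the 24 genes named against the other coronal fractions, in 3 comparisons of the 5 frontal fractions: with the other 24 coronal fractions, the 4 caudal neighbours and the 3 rostral neighbours. Filled points had a limma adjusted p under 0.05. *Ndst4* lies above 0 and *Agt* below 0 with filled points in all 3, whereas *Tbx21* is above 0 in the first 2 and below 0 in the last.

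Markers of several regions farther back had negative medians. Values of -1.99 for 11 hindbrain markers, -1.60 for 12 cerebellar, -1.97 for 8 choroid plexus and -1.0 for 12 thalamic and habenular markers stood beside -0.06 over all probes. Of these, 1, 0, 1 and 2 genes were lower by the test and none was higher. Not all such lists were low. The median was -0.19 for 8 hippocampal markers (1 lower) and 0.06 for 13 hypothalamic peptides (0 called). For the peptides it was 0.41 in C and -0.22 in Co. The medians of 14 cortical excitatory markers (1.06) and 14 immediate early genes (1.16) were positive, with 0 genes called in each. Of 12 myelin markers 2 were lower (median -0.96), among them *Aspa*, the aspartoacylase of oligodendrocytes, at -1.09 ± 0.26 (limma adjusted p = 0.0218). The difference between C and Co in this contrast called 0 probes, with 601 at an unadjusted p under 0.05, by limma's interaction term.

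These calls changed when the slide entered the model. Frontal arrays lie on 3 slides, each of which also holds neighbours: C11 and C12 with C9 and C10, Co12 with Co9 to Co11, and Co13 and Co14 with Co15 and Co16. With the slide as a fixed block 3 probes were higher and 40 lower, and for *Tbx21* the limma adjusted p was 0.175. That block compares the frontal arrays only with the fractions on these 3 slides, most of them neighbours. An effect of the slide and the change of reference therefore cannot be told apart. Within slides, *Ndst4* differed by 1.97, 0.66 and 1.85 in that order and *Agt* by -1.12, -2.35 and -2.28. Across 6 settings (the 2 scalings, normexp with quantile normalization, the slide as a random and as a fixed block, and C12 and Co14 left out) 2 probes were higher and 12 lower in every one, among them *Ndst4*, *Necab3*, *Agt*, *Odf3b* and *Sfrp5*. With 1 mean per group and mouse 0 probes were called, and the limma adjusted p of these 5 genes was 0.058 to 0.0702. Of 36 named genes called in this comparison, 31 lost the call with C12 and Co14 left out and 30 with slide fixed. Of the 36, 7 were still called whichever frontal fraction was left out (*Ndst4*, *Pnmt*, *Zfp474*, *Agt*, *Necab3*, *Odf3b* and *Sfrp5*), while 25 were lost without C11, 24 without C12, 9 without Co12, 29 without Co13 and 22 without Co14.

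Against the 4 caudal neighbours, the frontal fractions were higher in olfactory bulb genes and lower in striatal and myelin genes. The test called 130 of 34868 probes higher (0.373%) and 386 lower (1.11%), and with C12 and Co14 left out 7 higher and 91 lower. Of 14 olfactory bulb markers 4 were higher and 0 lower (median 2.11, against -0.04 over all probes). Of 20 striatal markers 0 were higher and 5 lower (median -1.39), and of 12 myelin markers 0 were higher and 5 lower (median -0.72). The summed intensity of the striatal markers was 92.6 to 241.0 in the frontal and 221.0 to 314.0 in the caudal fractions, and Co12 was the only frontal fraction within the caudal range.

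*S100a5*, a calcium-binding protein known from olfactory sensory neurons, showed the largest difference. Its levels were -1.78 in C11, 5.14 in C12, -3.18 in Co12, 2.57 in Co13 and 4.84 in Co14. It was not well above background on any caudal neighbour. By plain group means, without the block, the mean log2 level of the 5 fractions was at least 706.0-fold above that of the caudal neighbours (limma adjusted p = 0.000575). C12, Co13 and Co14 were far above C11 and Co12, and over the alternatives the measured log2 difference ranged from 5.97 to 10.78. *Tbx21* was higher by 5.83 ± 0.66 (limma adjusted p = 3.61e-05) and *Doc2g*, a gene of mitral and tufted cells, by 4.76 ± 0.82 (limma adjusted p = 0.00225). *Nppa*, the atrial natriuretic peptide, was higher by 3.66 ± 0.85 (limma adjusted p = 0.0244). All 5 frontal levels of each of these 4 genes lay above all 4 caudal levels, with Co12 lowest each time. *Scgn*, *Adamts19*, *Tafa3* and *Klhl30* completed the named genes at 3.58 to 4.46. With C12 and Co14 left out, *S100a5* (adjusted p = 0.0117) and *Tbx21* (adjusted p = 0.000271) were still called by limma. The call was lost by 7 of the 16 named genes of this comparison, with limma adjusted p of 0.504 for *Nppa*, 0.246 for *Adamts19*, 0.148 for *Ifi27l2b*, 0.0976 for *Scgn*, 0.0904 for *Tafa3*, 0.0652 for *Hoatz* and 0.0586 for *Doc2g*. With slide as a fixed block 8 of the 16 lost it, these 7 and *Klhl30*, with limma adjusted p of 0.0554 to 0.275. Leaving out 1 frontal fraction ended the call of *Nppa* and *Adamts19* among the 16, with limma adjusted p of up to 0.12 and 0.0503.

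Several receptor genes that are high behind the frontal fractions were lower in them. *Calcr*, the calcitonin receptor, had levels of -4.52 in C11, -5.62 in C12, -4.49 in Co12, -6.31 in Co13 and -5.55 in Co14, against -2.20 to -1.16 in the caudal neighbours, a difference of -3.73 ± 0.56 (limma adjusted p = 0.000703). *Cckar*, a cholecystokinin receptor, differed by -3.73 ± 0.51 (limma adjusted p = 0.000258) and was well above background on 1 of the 5 frontal arrays and all 4 caudal ones. For both genes the groups did not overlap. *Zfp474*, *Crygn*, *Ifi27l2b*, *Hoatz* and *Fam166c* were also among the named genes, with differences of -4.08 to -3.51. *Fbxw13* was well above background on none of the 5 frontal arrays and was at least 10.1-fold lower by plain group means (limma adjusted p = 3.61e-05). Over the alternatives its measured log2 difference ranged from -3.91 to -0.76. Of the striatal markers, *Drd2* differed by -2.63 ± 0.56 (limma adjusted p = 0.0133), *Pde10a*, a phosphodiesterase of medium spiny neurons, by -2.01 ± 0.42 (limma adjusted p = 0.0122) and *Ppp1r1b*, the dopamine-regulated phosphoprotein DARPP-32, by -2.11 ± 0.49 (limma adjusted p = 0.0254). *Mal* and *Opalin*, both of myelin, differed by -1.01 ± 0.17 (limma adjusted p = 0.00196) and -1.04 ± 0.22 (limma adjusted p = 0.0128).

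*Ngfr*, the low-affinity neurotrophin receptor of basal forebrain cholinergic neurons, was lower in all 3 comparisons. Its levels were -2.94 in C11, -2.81 in C12, -1.17 in Co12, -2.93 in Co13 and -1.89 in Co14, while the caudal neighbours measured -0.62 to -0.10 and the rostral neighbours -0.10 to 0.01. The difference was -2.05 ± 0.38 (limma adjusted p = 0.00412) against the caudal and -2.26 ± 0.41 (limma adjusted p = 0.000629) against the rostral neighbours, and neither group overlapped with the frontal levels. Against all other coronal fractions it was -1.39 ± 0.35 (limma adjusted p = 0.0294), with overlap, since the other C fractions went down to -2.41. Of 8 cholinergic and septal markers *Ngfr* was the only one called in any of these comparisons. It belongs to a list of markers rather than to the genes named by size.

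Against the 3 rostral neighbours, *Myoc*, *Allc* and *Htr2c* had the largest differences among the called genes higher in the frontal fractions of both mice, and *Stoml3*, *S100a5* and *Agr3* among those lower. The test called 3308 of 34866 probes higher (9.49%) and 3358 lower (9.63%). With the median of each array at 0 the counts were 4756 and 2563, so that 65.0% in place of 49.6% of the calls were higher. Co13 and Co14 share a slide with Co15 and Co16, and C13 was scanned on another day and slide than C11 and C12. With the slide as a fixed block 618 probes were higher and 1015 lower, and with C12 and Co14 left out 4631 and 4852. With only the 8 arrays compared in the fit, 6 probes were higher and 31 lower. In that fit 15 of the 16 named genes lost the call. Of the 16 named genes 10 lost the call with slide fixed (*Stoml3*, *S100a5*, *Agr3*, *Clca3a1*, *Clca3a2*, *Prdm8*, *Allc*, *Npy2r*, *Tdrd1* and *Tafa1*; limma adjusted p of 0.0655 to 0.358). With scan day as a fixed block 5 lost it (*Allc*, *Npy2r*, *Tdrd1*, *Tafa1* and *S100a5*; limma adjusted p of 0.078 to 0.15). C13 was the only coronal array of its slide and of its scan day, so either block took it out of the contrast. The fit with scan day gave the same 1553 higher and 1769 lower probes as the fit without C13. With either block the rostral side thus rests on Co15 and Co16, from the Co mouse alone.

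*Htr2c*, the serotonin 2C receptor, had levels of 0.03 in C11, -0.90 in C12, -0.05 in Co12, 0.22 in Co13 and -0.61 in Co14, against -3.38, -3.28 and -2.30 in C13, Co15 and Co16. The groups did not overlap, and the difference was 2.73 ± 0.26 (limma adjusted p = 4.55e-07). It was -0.45 ± 0.24 against the caudal neighbours (limma adjusted p = 0.453), and within the slide of Co13 to Co16 it was 2.59. *Myoc*, the myocilin gene, was higher by 3.27 ± 0.47 (limma adjusted p = 6.9e-05) and *Rph3a*, the synaptic vesicle protein rabphilin, by 2.47 ± 0.32 (limma adjusted p = 1.74e-05). *Allc*, the allantoicase gene, was not well above background on any rostral neighbour and was at least 6.65-fold higher by plain group means (limma adjusted p = 0.0312). Over the alternatives its measured log2 difference ranged from 0.8 to 3.67. *Prdm8*, *Npy2r*, *Tdrd1* and *Tafa1* followed at 2.49 to 2.57. *Allc*, *Npy2r*, *Tafa1* and *S100a5* lost their call without 1 of the frontal fractions, with limma adjusted p of up to 0.0787, 0.0637, 0.053 and 0.0889.

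Genes lower than in the rostral neighbours included *Stoml3* and *S100a5*, both known from olfactory sensory neurons. *Stoml3*, a stomatin-like protein, differed by -5.25 ± 1.20 (limma adjusted p = 0.00359), with levels of -6.69 in C11, -1.27 in C12, -9.12 in Co12, -3.84 in Co13 and -0.85 in Co14, against 0.05 to 1.58 in front. *S100a5* differed by -4.78 ± 1.50 (limma adjusted p = 0.0265). *Agr3*, *Ell3*, *Clca3a1*, *Clca3a2*, *Klre1* and *Fetub* differed by -4.56 to -4.05, and C12 and Co14 were the 2 highest of the 5 frontal fractions for every one of them. *Clca3a1* and *Clca3a2* are close paralogs, and cross-hybridisation between their probes was not tested.

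Lists of receptors, channels and kinases, which count 1 probe per gene, are read against all 15154 genes tested. Of these 1411 were higher and 1828 lower, beside 9.49% and 9.63% of probes. Of 20 calcium-dependent kinases and cyclic nucleotide enzymes 7 were higher and 0 lower (median 0.80, against -0.02 over all probes). *Itpka* differed by 2.15 ± 0.67 (limma adjusted p = 0.0247) and *Adcy1*, a calcium-stimulated adenylyl cyclase, by 1.72 ± 0.50 (limma adjusted p = 0.0184). Of 32 potassium channel genes 7 were higher and 1 lower (median 0.49), among them *Kcnk4*, a background potassium channel, at 2.07 ± 0.51 (limma adjusted p = 0.00651). Of 18 glutamate receptor genes 4 were higher and 1 lower (median 0.31). Among the higher ones *Gria3*, an AMPA receptor subunit, differed by 1.21 ± 0.29 (limma adjusted p = 0.00506). Among other receptors 2 of 13 serotonin, 1 of 13 catecholamine, 1 of 14 acetylcholine and 2 of 16 GABA receptor genes were higher, and 1, 0, 1 and 0 lower.

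Cortical and striatal lists are read against the same 1411 of 15154 genes higher. Of 14 cortical excitatory markers 2 were higher (median 1.20), *Neurod2* by 2.14 ± 0.60 and *Nptx1* by 1.24 ± 0.42. Of 9 markers of the upper cortical layers 3 were higher (median 0.90), and of 14 of the deep layers 0 were called (median 0.06). Of 20 striatal markers 4 were higher (*Ppp1r1b*, *Tac1*, *Adcy5* and *Gng7*; median 1.25). *Bhlhe22*, a helix-loop-helix factor of cortical areas, was higher by 2.28 ± 0.46 (limma adjusted p = 0.00148), and *Nr2f2*, an orphan nuclear receptor, lower, at -1.87 ± 0.35 (limma adjusted p = 0.000671). Of 12 myelin markers, 7 were higher and 1 lower than in the rostral neighbours (median 0.73), in contrast to the 5 that were lower than in the caudal neighbours.

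Other cell types stood beside these calls. Of 9 endothelial markers 5 were lower than in the rostral neighbours (median -0.58), led by *Cldn5*, a tight junction protein of brain vessels, whose levels were 3.43 to 4.01 in the 5 frontal fractions and 4.81 to 5.41 in the rostral neighbours (difference -1.35 ± 0.14; limma adjusted p = 1.24e-06). The summed intensity of the endothelial markers was 28.7 to 36.4 in the frontal, 28.9 to 32.1 in the caudal and 53.3 to 69.9 in the rostral fractions. Meningeal markers summed to 98.6 to 210.0, 73.8 to 118.0 and 209.0 to 332.0, with 2 of 10 called lower (*Dcn* and *Lum*), and 2 blood genes to 1.54 to 5.15, 1.44 to 1.97 and 7.29 to 9.42, with 1 called lower. Of 6 markers of ciliated ependymal cells 3 were lower. The part of these cell types in the other calls was not tested.

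A narrower question is which genes set the 5 fractions apart from all other coronal fractions in each mouse, without regard to a fold. Of 34333 probes measured throughout, 80 (0.233%, 56 genes) were higher in the lowest frontal fraction than in the highest other fraction of the same series, and 138 (0.402%, 96 genes) were lower in the highest frontal than in the lowest other fraction. Of the 80 probes 35 were called by limma against the other fractions, and of the 138 probes 115. No gap passed 2-fold. *Necab3*, a calcium-binding protein, had the largest gap above, 0.22: its levels were 1.97 in C11, 1.94 in C12, 2.18 in Co12, 2.33 in Co13 and 2.24 in Co14, and the other fractions reached 1.72 in C and 1.91 in Co. It was higher by 0.72 ± 0.12 (limma adjusted p = 0.00254) than all other fractions.

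*Dab1*, the adaptor of reelin signalling, *Slc9a9*, an endosomal sodium/proton exchanger, *Kcnh3*, a potassium channel, *P2ry12*, a purine receptor of microglia, and *Rap2a*, a small GTPase, followed with gaps of 0.07 to 0.15. *Slc9a9* differed by 0.47 ± 0.09 (limma adjusted p = 0.00936), and *P2ry12*, at -0.38 to -0.17 in the 5 fractions, by 0.66 ± 0.23 (limma adjusted p = 0.0831). Of 9 microglial markers 0 were called in any of the 3 comparisons. *Rab40b*, *Brinp2*, *Ociad2*, *Rtl6* and *Stk11ip*, together with *Nmbr*, completed the genes with the largest gaps. The first 5 of these, and also *Kcnh3*, *Rap2a* and *P2ry12*, were not called against the other fractions (limma adjusted p of 0.0501 to 0.138).

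On the lower side the genes with the largest gaps, which were picked after their values were seen, were *Stk32a* (0.48), *Odf3b* (0.35), *Aard* (0.34), *Tnnt3* (0.34), *Agt* (0.31), *Zfp474* (0.30), *Fads6* (0.28), *Zfp521* (0.27), *Sfrp5* (0.26), *Aph1a* (0.25), *Bspry* (0.22) and *Krtcap3* (0.19). *Sfrp5*, a secreted inhibitor of Wnt signalling, had levels of -4.90 in C11, -4.81 in C12, -5.13 in Co12, -5.80 in Co13 and -4.67 in Co14, with the other fractions at -4.03 or above in C and -4.42 or above in Co. The difference was -1.99 ± 0.30 (limma adjusted p = 0.0012) against all others and -2.53 ± 0.35 (limma adjusted p = 4.41e-05) against the rostral neighbours. *Odf3b* differed by -2.09 ± 0.33 (limma adjusted p = 0.00161) and by -2.05 ± 0.35 (limma adjusted p = 0.0021) against all others and the caudal neighbours. *Tnnt3* was not well above background on any of the 5 arrays and was at least 3.01-fold lower by plain group means (limma adjusted p = 0.0131). Over the alternatives its measured log2 difference ranged from -1.75 to -0.4. *Zfp521* was not called against the other fractions (limma adjusted p = 0.0896).

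**Figure D5:**
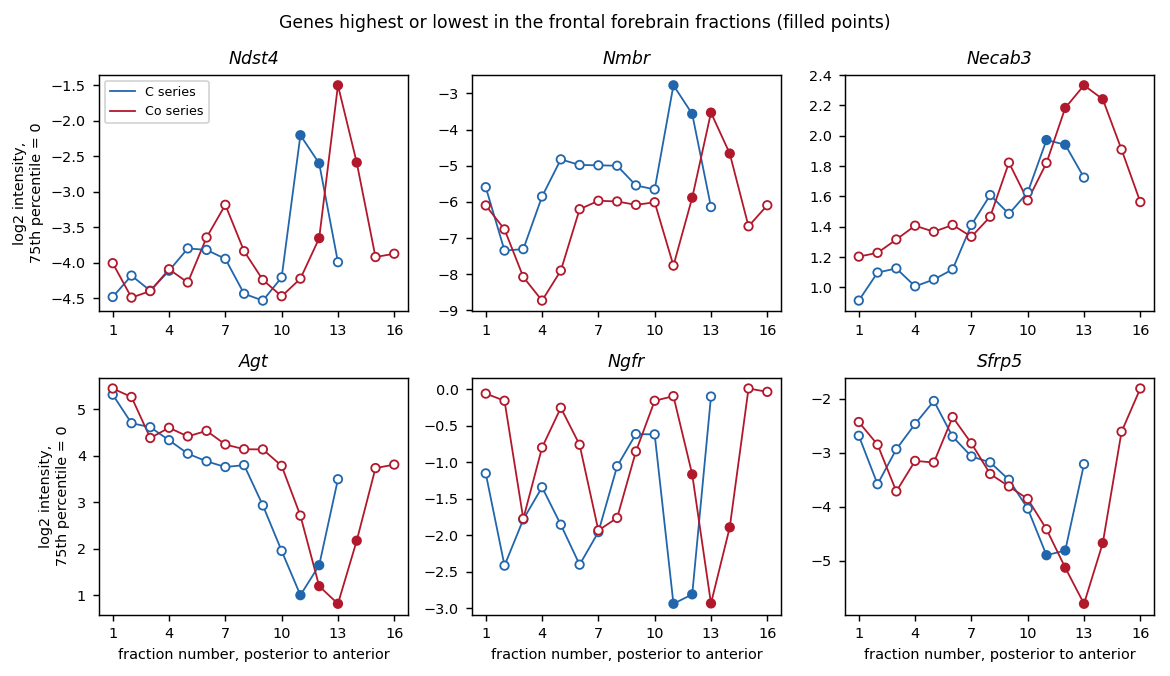
Levels of 6 genes along the coronal fractions, as log2 intensity with the 75th percentile of each array at 0, in the C series (blue) and the Co series (red), with fraction number from posterior to anterior; filled points are the 5 frontal forebrain fractions. *Ndst4*, *Nmbr* and *Necab3* have their highest point of each series there, at C11 or Co13, and *Agt*, *Ngfr* and *Sfrp5* their lowest.

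The 4 brains cut in other planes, which took no part in choosing these probes, give a separate reading of the same probes. By their place in the brain, the outermost sagittal fractions and the top horizontal fraction hold much cerebral cortex. Marker lists were not followed in these planes, and a part of the cortex in the shares below was not tested. Probes of the same gene were counted separately. Of the 80 probes above all other coronal fractions, 71 (88.8%) were highest in the S series in its first or last fraction (S2 or S10), against 39.8% of all probes. The corresponding shares were 58.8% against 33.8% in So, 66.2% against 23.0% in the top fraction of H and 62.5% against 29.2% in that of Ho. Of the 138 probes below, 81.2% were lowest at an end of S, against 37.0% of all probes, with 29.7% against 28.9% in So, 55.8% against 22.7% in H1 and 35.5% against 23.3% in Ho1.

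For single genes the planes differed. *Agt* was lowest in S2 (2.05), So2 (1.52), H1 (2.05) and Ho1 (1.65), against medians of 4.23, 3.68, 3.60 and 3.67 in these series. *Slc9a9* was highest in S2 (-2.48), So1 (-2.25), H1 (-2.43) and Ho1 (-2.33). *Nmbr* was highest in S10 (-5.15), So9 (-5.86), H5 (-4.40) and Ho6 (-4.85), and in the horizontal series, in contrast to these genes, it was lowest in H1 and Ho1. These are 1 array per fraction and mouse, and they were given no test.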

How the data were processed

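Per the labels and the file headers, RNA of each fraction was labelled with Cy3 and hybridised to an Agilent 1-colour mouse array, and Feature Extraction 9.1.3.1 (9.1 in the submitters' processing notes) gave a background-subtracted intensity for each spot, which the authors deposited without normalization between arrays. The array design number in the files is not the one the methods name, and the names in the files were used. A second table that the authors deposited holds linear intensities normalized in GeneSpring GX (processed signals over a constant for each array) of 36558 probes with a present flag. It served as an alternative, and 0 of its value columns were left unused.

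From the intensity of 43379 non-control spots, outlier spots were removed, the log2 values of repeated spots were averaged (41174 probes), and the 75th percentile of the array (921.4 to 1919 units on the coronal arrays) was subtracted. Between 61.57% and 73.1% of probes were well above background, 0 spots were saturated, and the number of arrays limits the precision. Probes well above background on at least 1 coronal array were tested. RefSeq accessions named 22951 probes (16358 genes).

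limma 3.58.1 in R 4.3.3 (lmFit, eBayes) was fitted with series as a fixed block, and p-values were adjusted by Benjamini-Hochberg over all probes. The methods' one-way ANOVA over paired fractions has no such contrast. For each gene the probe with the highest mean level was used; of the 72 named genes 23 had other probes, and for 2 of them another probe had the opposite sign. Against the other fractions, the 14 genes with the largest difference above and 10 below were named, and 8 each way against each neighbour group, among called probes with the same sign in both mice. Of 38 gene lists, 469 of 502 genes were measured. The fractions compared, the lists and the naming rule were chosen with earlier results of these data known. On simulated data, 200 of 34333 probes were changed by 2 log2 units. Of these, 91.5% were recovered against the other fractions, 81.0% against the caudal and 77.5% against the rostral neighbours. For changes of 1 unit the shares were 68.0%, 52.5% and 52.0%. These shares hold for the simulated spread only. In the measured data the frontal fractions differed among themselves. Arrays of a slide were also correlated there (0.528 against the other fractions, with slide as a random block). Recovery under such differences and correlation was not tested, and the shares may overstate it. Python 3.11.15 with pandas 2.3.3 made the tables. Results for a few genes are not reported here.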

Additional observations from a re-analysis of the deposited data

Results flagged for a closer look

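Of 72 groups of 5 values, 1 per named gene, 2 held a fraction far from the other 4. *Ifi27l2b*, named for its difference from the caudal neighbours, had a level of -5.91 in Co12, against -8.89 to -8.14 in the other frontal fractions, and its gap to the nearest of them was 0.747 of the whole range. *Shox2*, a homeobox factor, had a level of -4.79 in Co13 against -8.96 to -7.87 in the others, with a gap of 0.739 of the range. Chance gives such a gap in about 1 group in 20, so that 2 of 72 groups is no more than chance gives.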

How the results depend on the processing

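Counts are given as probes higher and lower. For the other fractions (232 and 984): 9 and 129 at an adjusted p under 0.01, 1476 higher with the median at 0, 1468 higher in the authors' normalized table, 271 lower with normexp and quantile normalization, 134 higher without a filter, 14 and 219 with the slide as a random and 3 and 40 as a fixed block, 719 and 1848 with scan day as a block, 1 and 2 in C alone, 0 and 0 in Co alone, 0 and 0 with 1 mean per group and mouse (10293 at an unadjusted p under 0.05), 2392 and 4506 without the rostral neighbours, 1450 and 2926 without the end fractions, and 15 and 87 without C12 and Co14, a choice made after seeing the data. For the caudal neighbours (130 and 386), in the same terms: 28 and 140 at 0.01, 233 higher with the median, 237 higher in the authors' table, 242 lower with normexp, 233 lower among probes well above background on all coronal arrays, 7 and 83 with the slide fixed, 3 and 11 in C, 0 and 1 in Co, 243 higher by mouse means, 1 and 109 with only the arrays compared, and 7 and 91 without C12 and Co14. For the rostral neighbours (3308 and 3358): 1457 and 1520 at 0.01, 618 and 1015 with the slide fixed, 1553 and 1769 with scan day, 1203 and 1765 in C, 816 and 1041 in Co, and 6 and 31 with only the arrays compared. Scan day as a block took C13, the only coronal array of its day, out of every comparison. The slope along the 5 fractions called 1922 and 1187 with normexp and quantile normalization and 0 otherwise. Without the replicate block, which is the mouse, the counts were 51 and 439, 75 and 244, and 1754 and 2084. Leaving out 1 fraction gave 9 to 176 higher and 111 to 823 lower for the other fractions, 28 to 527 and 171 to 863 for the caudal, 1553 to 4062 and 1769 to 4045 for the rostral neighbours, 0 to 1 and 0 to 9 for the difference between C and Co, and 0 for the slope. The lowest counts for the other fractions came without Co13 and the highest without Co12; those for the caudal neighbours were highest without Co12 and lowest without C12 (higher) and Co10 (lower), and those for the rostral neighbours were lowest without C13 and highest without C12. Of the named genes, none reversed its direction under these alternatives, and the cause of the changes in counts was not tested.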
